A study of Mus musculus with 4 samples.

Results

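Transcripts of 6 genes were followed through single aortic cells of the mouse: Smad4 and the receptor-activated Smads Smad1, Smad2, Smad3, Smad5 and Smad9. They were chosen by name and matched by Ensembl identifier, and they are 6 of the 27734 gene identifiers that the 4 libraries share. All 6 were counted in every library, and 94 other genes of the pathway were read from lists. Smad proteins carry signals of the TGF-beta superfamily from the cell surface to the nucleus. Ligand-bound receptors phosphorylate a receptor-activated Smad, which joins the common partner Smad4 and enters the nucleus to act on target genes. Smad2 and Smad3 serve TGF-beta and activin receptors, Smad1, Smad5 and Smad9 serve BMP receptors, and in the aortic wall both arms act on smooth muscle and its matrix.

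Cells were dissociated from the aortic arch and of the descending thoracic aorta of mice of 16 to 20 weeks. Both genotypes carried the CNC-SMC-Cre driver and the R26-tdT reporter, a red fluorescent protein gene that Cre switches on. The mice called control here were CNC-SMC-Cre;R26-tdT, and the mice called cKO were CNC-SMC-Cre;Smad4flox/flox;R26-tdT, with Smad4 alleles that Cre can inactivate. Each combination of genotype and segment is 1 droplet 5′ single-cell library, so there are 4 libraries, no group has a replicate, and no test was made. The labels do not say in which cells the driver acts, how many animals were pooled, or which Smad4 exons are flanked. A deletion reaches only cells that expressed the driver or descend from such cells. Every cKO class may therefore mix cells with and without intact Smad4. A transcript that lacks later exons can still be counted by reads near its 5′ end. By its title the series asks how the developmental origin of smooth muscle bears on its part in aortic disease.

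Because Smad9 is the receptor-activated Smad whose level differed most between smooth muscle-like cells within the cKO arch, its start region is shown, with that of Smad5, the other BMP Smad whose window held the same letters. The RefSeq windows of Smad1, Smad3, Smad5 and Smad9 on GRCm38.p6, from 250 bases before to 50 bases after each start, were searched for the letters GGCGCC, a GC-rich element known from BMP-responsive genes, and GTCTAGAC, a palindrome known to bind Smad proteins. Both read the same on the other strand. The windows of Smad2 and Smad4 were not used here. The capitals mark GGCGCC.
Smad9, chr3:54755519-54755548, plus strand: gcacggccgcctGGCGCCcttccagcgcgg
Smad5, chr13:56703021-56703050, plus strand: ccccggcgagcgGGCGCCgagcgcttgtcc
In Smad9 the match begins 51 bases before the annotated start, and in Smad5 it begins 23 bases after one RefSeq start and 19 before another. GGCGCC was present in 11.9% of 32851 RefSeq start windows and GTCTAGAC in 0.213%, so the first is common. Neither motif occurred in the windows of Smad1 and Smad3, and GTCTAGAC in none of the windows searched. A match of letters is a description and shows no binding.

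In the GENCODE M21 annotation of GRCm38, Smad4 (ENSMUSG00000024515) lies on the minus strand of chromosome 18 at 73639009 to 73703780, and Smad2 (ENSMUSG00000024563) on the plus strand of the same chromosome at 76241580 to 76310963. Smad3 (ENSMUSG00000032402) is on the minus strand of chromosome 9 at 63646767 to 63757994. Smad1 (ENSMUSG00000031681) is on the minus strand of chromosome 8 at 79338395 to 79399518, Smad5 (ENSMUSG00000021540) on the plus strand of chromosome 13 at 56703010 to 56742377, and Smad9 (ENSMUSG00000027796) on the plus strand of chromosome 3 at 54755582 to 54801257. Smad4 overlaps AC132418.2, on the opposite strand only. Smad5 overlaps Gm27301, Gm27834 and Gm27271 on its own strand, so reads at those places may be ambiguous between genes. What the overlaps do to the counts was not tested.

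Values given in fours follow one order throughout: arch of cKO, arch of control, descending aorta of cKO, descending aorta of control. Filters left 5573, 8050, 5624 and 4997 cells, with medians of 5768, 9959, 6408 and 7053 UMIs (unique molecules) per cell. Any 2 libraries had between 28 and 61 barcodes of kept cells in common. The cKO arch was counted against another annotation, with 28693 features against 32285 in each of the others, so comparisons with it also differ in annotation. Ddx3y, a Y-linked transcript, had 1261 UMIs in the control arch and 0 in each of the other 3 libraries, while Xist was counted in all 4, so comparisons with the control arch also differ in sex make-up. The part of either difference in the results was not tested. Cells were put in classes by the summed UMIs of fixed marker lists per 10000 UMIs of the cell, and a class is a range of marker levels and not a cell type. In smooth muscle-like cells (at least 100 per 10000) the median was 407 to 470 for smooth muscle markers such as Myh11 and Acta2, and 6.06 to 12.3 for fibroblast markers. The number of cells within 20% above that boundary was 23 to 67 per library, against 1244 to 3686 cells in the class. A further 58 to 119 kept cells per library lay within 20% below it, outside the class. A class named Spp1+Tnfrsf11b+ mesenchymal, cells with UMIs of both the matrix phosphoprotein gene Spp1 and the decoy receptor gene Tnfrsf11b, held 394 cells of the cKO arch and 11, 2 and 0 cells of the other libraries. Its cells had medians of 18.6 smooth muscle and 31.4 fibroblast marker UMIs per 10000, so its median levels lie between those classes. Cells that passed no gate were 14.7% of the cKO arch and 3.12 to 6.36% of the other libraries.

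Levels are given in CPM, the UMIs of a gene summed over the cells of a class in 1 library and scaled to 1000000 UMIs, with 95% intervals that cover counting error only. CPM is compared here for the same gene between classes or libraries, not between genes. Smad4, the common partner, was counted in every class, with class medians from 50.4 to 119 CPM. In smooth muscle-like cells it stood at 62.1 CPM (58.2 to 66.3), 72.8 (70.5 to 75.1), 87.6 (83.1 to 92.3) and 89.2 (84.7 to 93.9). The arch libraries were the lower pair, and the cKO arch was lowest. Fibroblast-like cells held 63.3, 79.7, 99.2 and 84.1 CPM, macrophage-like cells 59.6, 75.8, 78.3 and 72.2, and T cell-like cells 72.7, 95.5, 72.8 and 83.8. Endothelial-like cells ranged only from 97.8 to 108 CPM over the 4 libraries, all above the 4 smooth muscle values. By the median over libraries the order ran from pericyte-like cells (119 CPM, 2 libraries with 22 and 24 UMIs) through endothelial-like (102), neutrophil-like (86.0, 1 library), fibroblast-like (81.9), smooth muscle-like (80.2), thymocyte-like (79.9, 1 library), T cell-like (78.3), mesothelial-like (74.2) and macrophage-like cells (74.0) to Spp1+Tnfrsf11b+ cells (64.5, 1 library) and B cell-like cells (50.4). From neutrophil-like to Spp1+Tnfrsf11b+ cells the ranges of neighbours overlapped. The pericyte intervals reached from 73.8 to 180 CPM and so covered the endothelial values too.

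The members of the TGF-beta arm did not share a pattern across classes. Smad3 was higher in fibroblast-like cells, with 26.2, 33.6, 37.8 and 31.8 CPM, than in smooth muscle-like cells, with 12.0, 15.0, 18.5 and 17.1. The ranges of these classes did not overlap. In endothelial-like cells Smad3 was 12.9, 14.5, 13.8 and 6.86 CPM, and the Spp1+Tnfrsf11b+ cells, at 25.3 CPM, sat between the smooth muscle and fibroblast ranges. The class medians of Smad2 ran from 27.0 CPM in smooth muscle-like cells, the lowest, to 49.3 in T cell-like cells, and the ranges of all neighbours but neutrophil-like and Spp1+Tnfrsf11b+ cells overlapped. Macrophage-like cells held 35.5, 35.0, 43.8 and 43.3 CPM of Smad2, all above the smooth muscle range of 23.2 to 32.8 CPM. Among the 5 classes with all 4 libraries, the cKO arch was lowest for Smad2 in 4, for Smad4 in 4, for Smad3 in 3, for Smad5 in 2 and for Smad1 in 0, and for Smad1 it was highest in 3. Smad9 was lowest in the cKO arch in 0 of 3 classes with enough UMIs. Over all genes the cKO arch was lowest for 50.1% in smooth muscle-like, 42.7% in fibroblast-like, 43.2% in endothelial-like, 41.7% in macrophage-like and 36.2% in T cell-like cells, so a lowest value there is common and sets no Smad apart.

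In the BMP arm, Smad1 and Smad5 were higher in endothelial-like than in smooth muscle-like cells in every library. Their Smad1 was 193, 87.6, 108 and 143 CPM, against 37.7, 46.8, 32.9 and 37.2 CPM in smooth muscle-like cells. Macrophage-like cells (23.7 to 28.0 CPM) and T cell-like cells (13.7 to 19.1 CPM) were below every smooth muscle value. Smad5 followed a similar order, with 93.8, 53.0, 75.5 and 84.3 CPM in endothelial-like, 33.4, 30.1, 43.2 and 39.5 CPM in smooth muscle-like and 15.3 to 19.2 CPM in macrophage-like cells. Pericyte-like cells, with 75.4 and 80.3 CPM of Smad5 on 15 UMIs each, fell within the endothelial range.

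Smad9, the BMP Smad encoding the protein once called Smad8, was largely a transcript of the smooth muscle-like and Spp1+Tnfrsf11b+ cells. Smooth muscle-like cells held 16.7 (14.7 to 19.0), 23.9 (22.6 to 25.2), 15.1 (13.3 to 17.1) and 14.4 CPM (12.6 to 16.4), the control arch being highest, and the Spp1+Tnfrsf11b+ cells 16.0 (13.0 to 19.5). Fibroblast-like cells ranged from 3.78 to 5.88 CPM, endothelial-like cells from 1.37 to 4.96 and mesothelial-like cells from 4.56 to 8.71. Macrophage-like cells had 8, 4, 3 and 1 UMIs (0.177 to 1.67 CPM) and T cell-like cells 0, 0, 0 and 1. Free RNA from other cells can give such UMIs in a droplet, so a Smad9 level like this is not read as expression. In pericyte-like cells Smad9 had 0 UMIs in both libraries, where counting error alone allows up to 18.6 and 19.7 CPM.

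**Figure D1:**
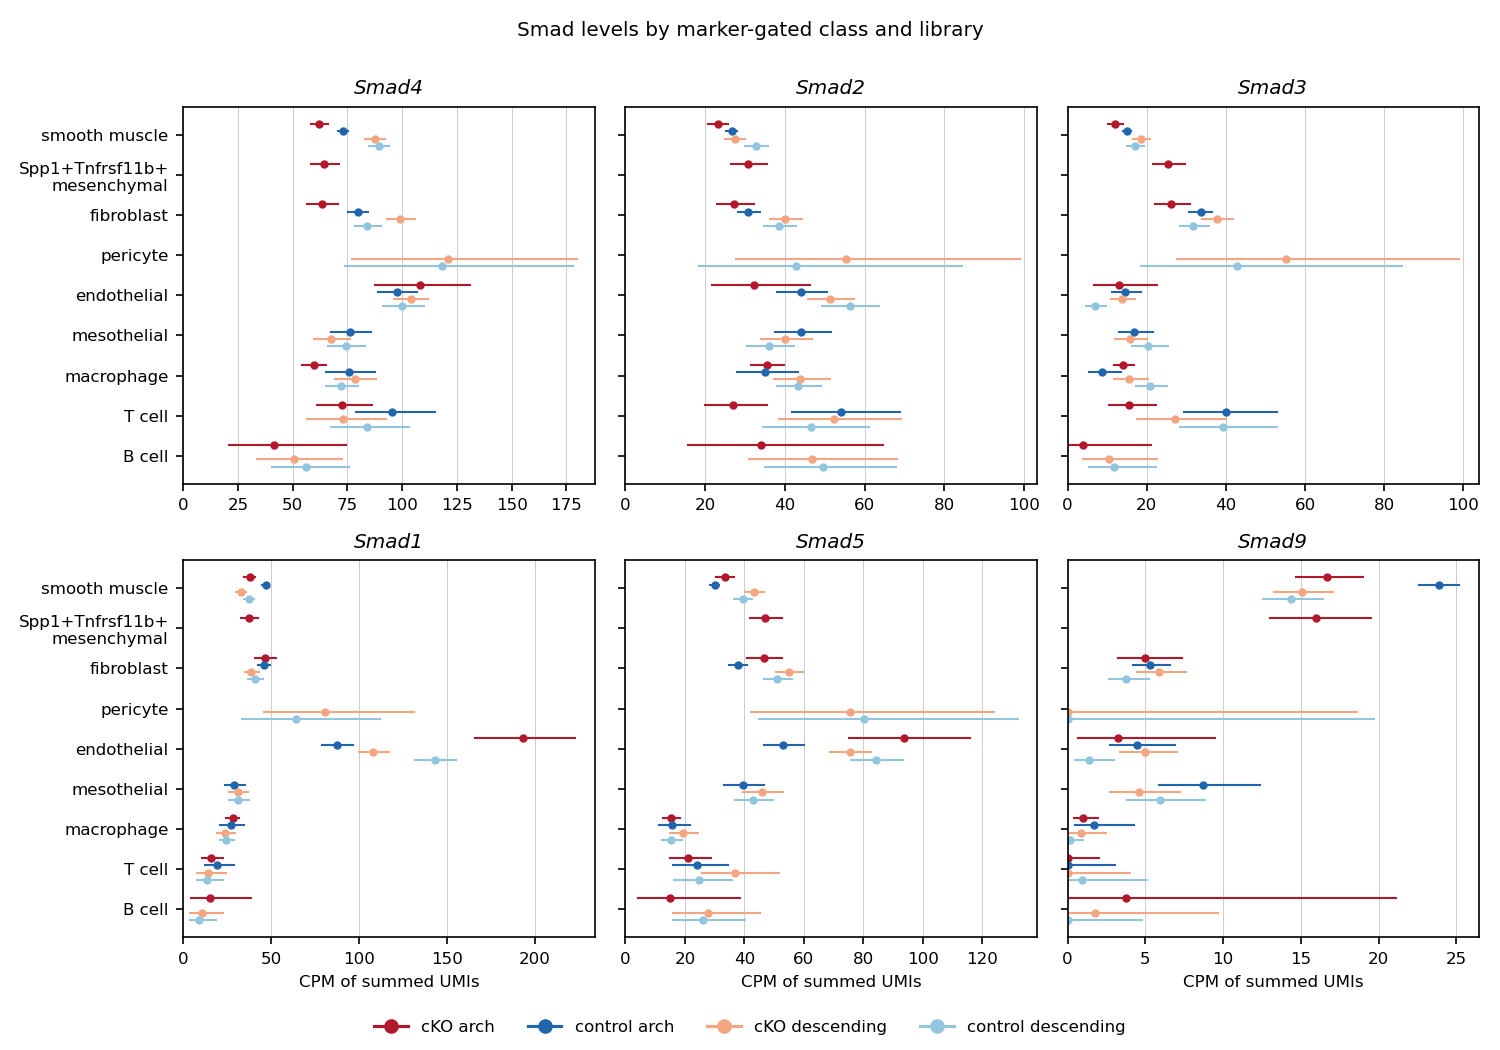
Level of each Smad (CPM of summed UMIs, linear axis, each panel with its own scale) by marker-gated class, 1 point per library with the 95% Poisson interval of counting error as a bar. Classes under 50 cells in a library are left out, and neutrophil-like and thymocyte-like cells are not drawn. Endothelial-like cells hold 87.6 to 193 CPM of Smad1, and Smad9 stands at 14.4 to 23.9 CPM in smooth muscle-like cells and near 0 in macrophages and T cells.

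Over the 4 libraries, 3 of the 6 Smads lay wholly above smooth muscle in endothelial-like cells (Smad1, Smad4 and Smad5), against 26.9% of 14553 genes, and 1 wholly below (Smad9), against 17.9%. Fibroblast-like cells had 1 Smad above (Smad3), against 21.1% of genes, and 1 below (Smad9), against 18.8%. Macrophage-like cells had 1 above (Smad2), against 22.2%, and 3 below (Smad1, Smad5 and Smad9), against 34.9%. T cell-like cells had 0 above, against 23.7%, and 2 below (Smad1 and Smad9), against 31.9%. Such shares are large for all genes, so the counts describe the Smads and set them apart from no background. Of the UMIs of the 5 receptor-activated Smads, the BMP members made up 64.6 to 71.4% in smooth muscle-like cells, 71.3 to 86.5% in endothelial-like cells, 56.1 to 64.7% in fibroblast-like cells, 38.4 to 50.5% in macrophage-like cells and 31.4 to 46.3% in T cell-like cells. This share compares classes and says nothing of which Smad protein is active.

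The cKO arch library also counts a feature named RFP, which is not listed in the others. R26-tdT is assumed to be its source. No label or header gives its sequence, and a high RFP count need not mean a recombined Smad4 allele. RFP was high (16 or more UMIs) in 377 of 1264 smooth muscle-like cells (29.8%, exact 95% interval 27.3 to 32.4%), 154 of 394 Spp1+Tnfrsf11b+ cells (39.1%, 34.2 to 44.1%) and 206 of 657 fibroblast-like cells (31.4%, 27.8 to 35.1%). In 159 endothelial-like cells the share was 0.629%, in 1152 macrophage-like cells 0.26%, and in 477 T cell-like cells 0, where counting error allows up to 0.77%. Cells thinned to 3000 UMIs, where high means 5 or more, gave 33.0, 37.8 and 41.2% in the 3 mesenchymal classes, 0.943% in endothelial-like, 0.986% in macrophage-like and 1.31% in T cell-like cells, and left out 139, 42, 167, 53, 239 and 171 shallower cells. RFP-high cells were thus found mainly in the mesenchymal classes, and the comparison with RFP-low cells (under 8 UMIs) was made within these.

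Smad4 was lower in RFP-high than in RFP-low smooth muscle-like cells. It stood at 82.1, 69.1 and 77.8 CPM in cells with 0 to 1, 2 to 7 and 8 to 15 RFP UMIs, then at 49.0, 35.2 and 30.2 CPM in cells with 16 to 31, 32 to 63 and 64 or more. The intervals of the last 2 bins, 25.1 to 48.2 and 23.6 to 38.0 CPM, lay below those of the first 3, of which the lowest bound was 63.1. Pooled, Smad4 was 34.7 CPM in 377 RFP-high cells (145 UMIs) and 71.9 CPM in 773 RFP-low cells (627 UMIs), a log2 ratio of -1.05 (-1.32 to -0.79), or 48.3% of the RFP-low level. Beside the control arch, at 72.8 CPM, the log2 ratio was -0.02 (-0.14 to 0.10) for RFP-low and -1.06 (-1.32 to -0.83) for RFP-high cells. With RFP-high set at 8 or more UMIs the ratio to RFP-low cells was -0.58, just short of 1.5-fold.

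Smad9 was lower in the same cells. Its level by RFP bin was 16.2, 20.5, 25.8, 8.4, 11.7 and 3.82 CPM, and the highest bin rests on 9 UMIs. Pooled, Smad9 was 6.71 CPM (28 UMIs) in the RFP-high and 19.6 CPM (171 UMIs) in the RFP-low group, with a log2 ratio of -1.53 (-2.18 to -0.97). Beside the 23.9 CPM of the control arch, the log2 ratio was -0.28 (-0.52 to -0.05) for RFP-low and -1.81 (-2.43 to -1.29) for RFP-high cells. The other BMP Smads did not share the difference: the log2 ratio of RFP-high to RFP-low was 0.10 (-0.18 to 0.38) for Smad1 and 0.04 (-0.26 to 0.33) for Smad5. In the TGF-beta arm it was -0.03 (-0.41 to 0.33) for Smad2 and 0.43 (-0.08 to 0.91) for Smad3, so the intervals of these 4 genes all include 0. In cells of 6000 to 20000 UMIs, a range chosen after seeing the data, Smad3 was at 0.70 (0.05 to 1.33, 39 and 49 UMIs), past 1.5-fold. Past 1.5-fold, 2 of the 6 Smads were lower, against 4.04% of 10973 genes with at least 30 UMIs, and 0 were higher, against 6.5%. Set beside the control arch, which serves both comparisons, 0 of 6 Smads passed 1.5-fold in RFP-low cells, against 8.4% of genes higher and 20.3% lower, and in RFP-high cells 2 were lower, Smad4 and Smad9, against 18.9%, and 0 higher, against 10.5%.

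**Figure D2:**
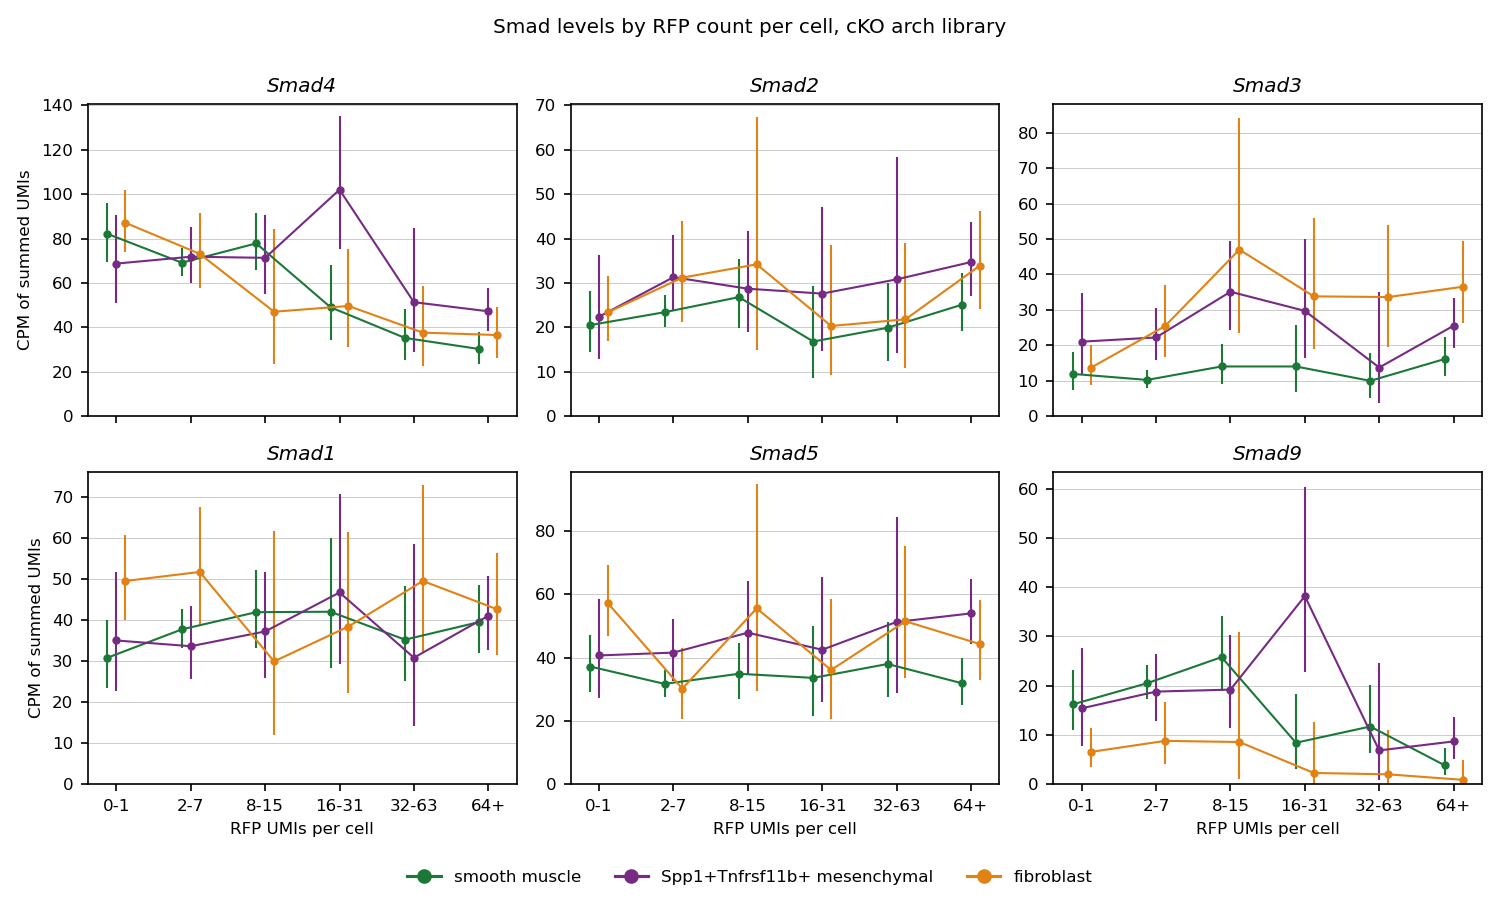
Level of each Smad (CPM of summed UMIs, linear axis) in cells of the cKO arch binned by their RFP UMIs, for smooth muscle-like, Spp1+Tnfrsf11b+ and fibroblast-like cells, with 95% Poisson intervals of counting error. In smooth muscle-like cells Smad4 goes from 82.1 CPM at 0 to 1 RFP UMIs to 30.2 CPM at 64 or more, and Smad9 from 16.2 to 3.82 CPM.

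Fibroblast-like cells showed a like Smad4 difference and an added one in Smad3. The class itself differed between libraries: its median fibroblast marker level per 10000 UMIs was 167 in the cKO arch and 422, 403 and 427 in the others. Of its cells, 42 of the cKO arch lay within 20% above the boundary, against 6 to 8 elsewhere. Kept cells within 20% below it numbered 82 in the cKO arch and 80 to 176 elsewhere. Smad4 was 87.1, 73.1, 47.0, 49.6, 37.6 and 36.5 CPM over the RFP bins. Pooled, it was 39.5 CPM in 206 RFP-high cells (83 UMIs) and 82.1 CPM in 411 RFP-low cells (235 UMIs), a log2 ratio of -1.05 (-1.43 to -0.69). Thinned to 3000 UMIs per cell it was -0.47 (-1.14 to 0.15, 33 and 62 UMIs), no longer past 1.5-fold. Smad3 went the other way, with 13.6 and 25.4 CPM in the 2 lowest bins and 33.6 to 47.0 CPM in the 4 others. It was 35.2 CPM in RFP-high (74 UMIs) and 17.8 CPM in RFP-low cells (51 UMIs), a log2 ratio of 0.98 (0.45 to 1.53). Over the alternatives this ratio ran from 0.85 with cells weighted equally to 1.56 with classes from clusters (40 and 20 UMIs) and 1.95 thinned (21 and 7 UMIs). Beside the control arch, at 33.6 CPM, it was the RFP-low cells that stood apart, with a log2 ratio of -0.90 (-1.36 to -0.50) against 0.08 (-0.30 to 0.42) for RFP-high cells. Smad1, Smad2 and Smad5 had log2 ratios between RFP groups of -0.21 (-0.61 to 0.17), 0.10 (-0.42 to 0.61) and -0.10 (-0.50 to 0.29), while Smad9 had 3 and 21 UMIs, too few to call. Past 1.5-fold, 1 Smad was lower, against 5.99% of 9855 genes, and 1 higher, against 6.63%. Beside the control arch, 1 of 6 was lower in RFP-low cells (Smad3), against 20.7% of genes, and 0 higher, against 11.3%. In RFP-high cells 2 were lower, Smad4 on 39.5 against 79.7 CPM and Smad9 on 3 against 81 UMIs, against 19.1% of genes, and 0 higher, against 12.7%.

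In the Spp1+Tnfrsf11b+ cells no Smad differed by 1.5-fold, against 5.35% of 9914 genes lower and 6.77% higher. Smad4 was 56.7 CPM in 154 RFP-high cells (161 UMIs) and 70.9 CPM in 197 RFP-low cells (175 UMIs), a log2 ratio of -0.32 (-0.64 to -0.00). By bin it was 68.7, 71.8, 71.3, 102, 51.3 and 47.2 CPM. The value of 102 CPM comes from 24 cells with 16 to 31 RFP UMIs, whose Smad9, at 38.2 CPM, was also the highest of the 6 bins. Smad9 as a whole was at 13.4 CPM beside 17.8 CPM (log2 ratio -0.41, -1.08 to 0.25). With RFP-high at 32 or more UMIs it was -1.06 (20 and 44 UMIs). With each cell thinned to 3000 UMIs the log2 ratio of Smad4 was -0.73 (-1.58 to 0.02, 20 and 50 UMIs), past 1.5-fold but on few UMIs. Ratios of Smad1, Smad2, Smad3 and Smad5 were 0.26, 0.20, 0.19 and 0.32, all with intervals that include 0, though Smad2 was at 0.68 (-0.08 to 1.47) in cells of 6000 to 20000 UMIs and 0.86 (-0.12 to 1.89) thinned. The difference of the Smad4 ratio between the 3 classes was not tested.

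Depth and marker levels moved with RFP as well. RFP-high and RFP-low cells had medians of 9327 and 10624 UMIs in the smooth muscle, 14158 and 10588 in the Spp1+Tnfrsf11b+ and 8528 and 5185 in the fibroblast class. Within the smooth muscle class the 8 smooth muscle markers summed to 43225 CPM (quartiles over cells 25725 to 57700) in RFP-high and 43707 CPM (25120 to 54271) in RFP-low cells. The 9 fibroblast markers, all detected, summed to 1123 CPM (561 to 1586) against 765 CPM (407 to 1116), and the 7 markers of the Spp1 list to 1237 against 1687 CPM. In fibroblast-like cells the fibroblast markers summed to 17382 CPM (11236 to 24148) in RFP-high and 20975 CPM (11667 to 29190) in RFP-low cells, the Spp1 list to 3779 against 5170 CPM and adipocyte markers to 58.6 against 358 CPM. In Spp1+Tnfrsf11b+ cells adipocyte markers went the other way, 136 against 63.2 CPM. Monocyte markers summed to 60.6 against 129 CPM in smooth muscle-like, 108 against 151 CPM in Spp1+Tnfrsf11b+ and 377 against 368 CPM in fibroblast-like cells. Macrophage markers summed to 60.8 against 61.1, 48.6 against 80.6 and 62.9 against 117 CPM in the same order of classes. Cardiomyocyte markers summed to 51 against 71.4, 42.6 against 33.6 and 41 against 3.84 CPM, the last pair on 86 and 11 UMIs. Of the 5 genes on that list, only Tnnt2 had UMIs in RFP-high fibroblast-like cells and in both groups of Spp1+Tnfrsf11b+ cells. Myh6 and Nppa had 0 UMIs in every group, so these sums are not read as cardiomyocyte signal. Schwann markers were at 41.9 against 84.2 CPM in fibroblast-like and 64.1 against 100 CPM in Spp1+Tnfrsf11b+ cells. In Spp1+Tnfrsf11b+ cells the smooth muscle markers summed to 5996 against 6040 CPM and the class's own list to 19054 against 21195 CPM. Mesothelial markers had 0 UMIs for all 6 genes in RFP-high fibroblast-like cells and 46 UMIs over 3 of 6 in RFP-low cells. Within cells of 6000 to 20000 UMIs the Smad4 log2 ratio was as large, at -1.07 in the smooth muscle and -1.09 in the fibroblast class, and Smad9 in smooth muscle was at -1.47. Without fibroblast-like cells that had any Spp1 or Tnfrsf11b UMI, also chosen after seeing the data, the fibroblast ratios were -1.38 for Smad4 and 0.91 for Smad3. The part of the marker differences in the Smad results was not tested.

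Around the Smads, the genes that signal through them or are induced by them were read from lists, in the same contrast. For comparison, 6.5, 6.77 and 6.63% of all genes tested were higher and 4.04, 5.35 and 5.99% lower past 1.5-fold in the smooth muscle, Spp1+Tnfrsf11b+ and fibroblast class. Genes named outside the naming rule, to account for a small count, were chosen after their values were seen. In smooth muscle-like cells 0 of 6 TGF-beta and activin receptors measured were lower and 1 was higher past 1.5-fold, the co-receptor Tgfbr3 (74.7 against 43.8 CPM, log2 ratio 0.77), while the kinase Tgfbr1 was at 61.6 against 81.9 CPM (-0.41). Of 6 BMP receptors 1 was lower, the type I receptor Bmpr1b (9.34 against 15.6 CPM, -0.73). In the Spp1+Tnfrsf11b+ cells 3 of 5 TGF-beta and activin receptors were higher, Tgfbr3 (0.73), Acvr2a (0.67, -0.03 to 1.43) and the type II receptor Tgfbr2 (0.61), and of 5 BMP receptors 1, the type I receptor Acvrl1 (0.90). None of 5 and 5 passed 1.5-fold in fibroblast-like cells. Ligands went both ways. Smooth muscle-like cells had 3 of 10 higher, Tgfb3 (0.72), Bmp2 (0.64) and Gdf15 (0.62), and 2 lower, Bmp3 (-2.01, 16 against 138 UMIs) and Gdf10 (-0.69). Spp1+Tnfrsf11b+ cells had 3 of 10 higher, Gdf6 (1.74), Inhbb (0.98) and Inhba (0.79), and 0 lower. In fibroblast-like cells 3 of 9 were higher, Bmp2 (1.37), the activin subunit gene Inhba (1.34) and Gdf15 (0.64), and 2 lower, Tgfb3 (-1.35) and Gdf10 (-0.72).

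Among the genes that Smads induce, 6 to 8 BMP targets per class were lower in RFP-high cells. Of these targets, among which the Id genes encode inhibitors of helix-loop-helix factors, 6 of 11 measured were lower and 2 higher in smooth muscle-like cells, with a median log2 ratio of -0.95 against 0.04 over all genes. Id1 was 39.8 against 91.8 CPM (-1.20, -1.46 to -0.97), Id2 109 against 241 CPM (-1.14) and Id3 528 against 1105 CPM (-1.07). The 2 higher were the homeobox genes Dlx5 (1.04) and Msx2 (0.66). In Spp1+Tnfrsf11b+ cells 6 of 12 were lower and 0 higher, with a median of -0.68 against 0.05, led by the BMP antagonist Grem1 (7 against 51 UMIs, -2.98), the transcription factor gene Hey1 (11 against 28 UMIs, -1.51) and Id1 (-1.26). In fibroblast-like cells 8 of 11 were lower and 0 higher, with a median of -0.89 against 0.07, among them Id2 (-1.58) and Id1 (-1.53). These lists were chosen with earlier results of these cells known, so their direction is not independent evidence.

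Inhibitory Smads and other feedback inhibitors, themselves induced by the pathway, were lower in 4 of 11 and higher in 0 in smooth muscle-like cells, with a median of -0.19. The count of 4 ran from 1 to 5 over the alternatives. Smad6, which blocks BMP Smads, was 30.2 against 61.1 CPM (-1.01), Smad7, which blocks both arms, 80.9 against 158 CPM (-0.96), and Pmepa1, which sequesters Smad2 and Smad3, 676 against 1214 CPM (-0.84). The other was Skil (-0.63), a Smad corepressor gene. Only Smad6 was past 1.5-fold in the Spp1+Tnfrsf11b+ cells (1 of 11, -0.85), and 5 of 11 were lower in fibroblast-like cells, where Smad6 was at -1.48, Smad7 at -1.02, Ldlrad4 at -0.96, Skil at -0.83 and Nedd4l at -0.64. Among TGF-beta targets, the medians were -0.34, -0.26 and -0.43, and the counts lower were 3 of 17, 3 of 18 and 7 of 18, with 1, 1 and 0 higher, in the smooth muscle, Spp1+Tnfrsf11b+ and fibroblast class. Over the alternatives these lower counts ran from 1 to 4, 2 to 6 and 4 to 8. The elastin gene Eln was lower in all 3 classes (-0.87, -0.71 and -0.98), whereas Thbs1, a matricellular protein gene, was higher in smooth muscle-like cells (161 against 58.8 CPM, 1.46) and lower in the others (-0.78 and -1.17). The fibronectin gene Fn1 was at -0.83 in smooth muscle-like cells, while in Spp1+Tnfrsf11b+ cells the integrin gene Itga11 was at -0.70 and the transglutaminase gene Tgm2 at 0.87. Of 25 partners, phosphatases and ubiquitin enzymes of the Smads, 0, 0 and 1 were lower and 1, 2 and 0 higher (24 were measured in Spp1+Tnfrsf11b+ cells), counts near the all-gene shares. Zeb2, a Smad-binding repressor, was at 0.59, 0.65 and 0.42, the importin gene Ipo8 at 0.65 in Spp1+Tnfrsf11b+ cells, and the ubiquitin ligase gene Wwp1 at -0.69 in fibroblast-like cells.

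**Figure D3:**
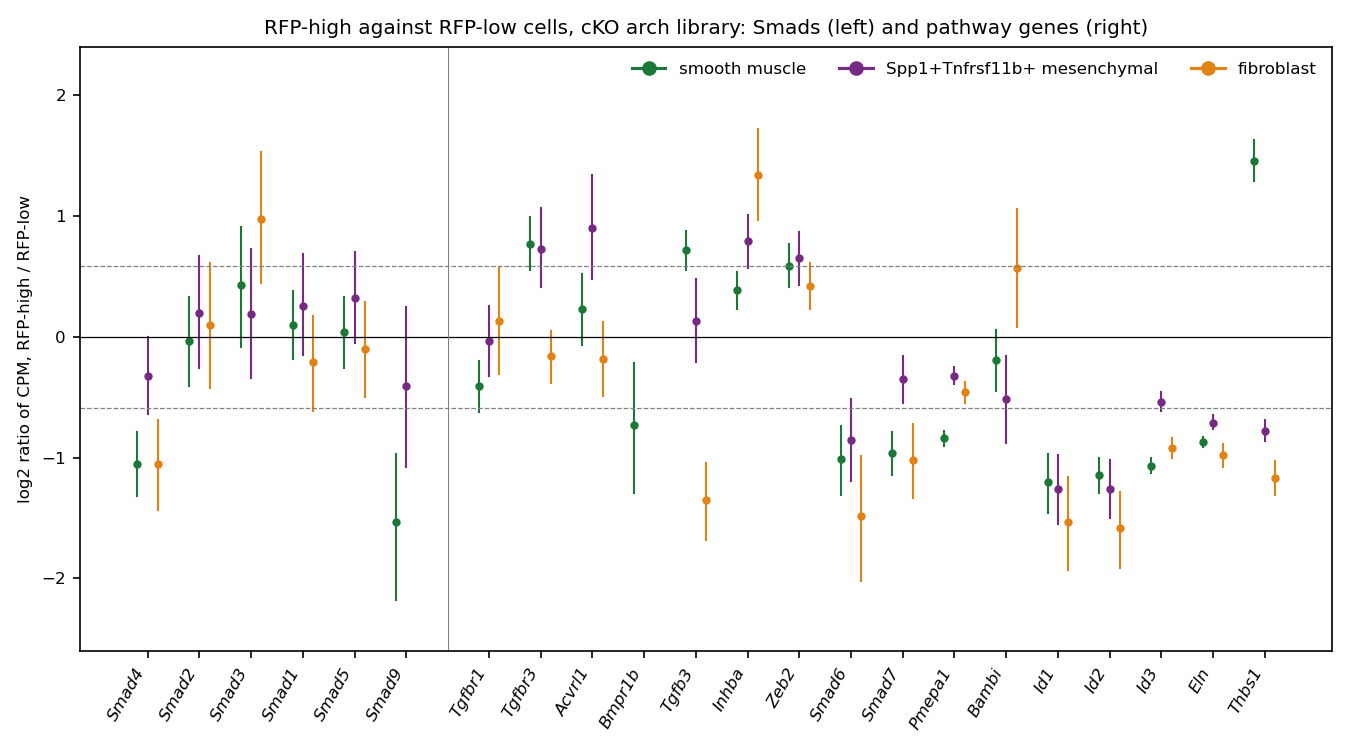
Log2 ratio of CPM between RFP-high and RFP-low cells of the cKO arch for the 6 Smads (left of the grey line) and for pathway genes from the lists (right), by class, with 95% intervals of counting error; dashed lines mark 1.5-fold, and genes under 30 UMIs in both sums together are left out. Smad4 stands at -1.05 in smooth muscle-like and fibroblast-like cells and -0.32 in Spp1+Tnfrsf11b+ cells, and Id1 at -1.20, -1.53 and -1.26.

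Between libraries, smooth muscle-like cells taken whole differed less. For Smad4 the log2 ratio of cKO to control was -0.23 (-0.33 to -0.12) for the arch pair and -0.03 (-0.13 to 0.08) for the descending pair. Past 1.5-fold, 0 of the 6 Smads differed in the arch, against 9.14% of 13178 genes higher and 18.5% lower, and 0 in the descending aorta, against 2.7% higher and 4.12% lower. In the arch the median over expressed genes was itself at -0.11, and scaling by it moved Smad4 to -0.12. Smad9 was at -0.51 (-0.72 to -0.32) for the arch pair and 0.07 (-0.20 to 0.33) for the descending pair. Between segments of the control genotype Smad9 was the only Smad past 1.5-fold in smooth muscle-like cells, higher in the arch at 0.73 (0.53 to 0.94), against 6.87% of 13241 genes higher and 10.6% lower. Thinned to 3000 UMIs it was 0.52. Smad1 was at 0.33 (0.20 to 0.46), while Smad4, Smad2 and Smad5 were lower in the control arch, at -0.29, -0.30 and -0.40. Between segments of the cKO genotype Smad3 was at -0.63 (-0.90 to -0.36), 1 of 6 lower, against 18.6% of 12281 genes, and 0 higher, against 8.13%. Smad4 was at -0.50 (-0.62 to -0.38). The Smad3 value rests on the gate: with classes taken from clusters it was 0.07, and it was -0.54 with stricter cell filters and -0.47 with median-of-ratios scaling. Thinned to 3000 UMIs, other values passed 1.5-fold: between cKO and control Smad9 was at -0.93 for the arch pair and -0.88 for the descending pair and Smad3 at -0.62 for the arch pair, between control segments Smad5 was at -0.64, and between cKO segments Smad4 was at -0.68 (-0.63 with cells weighted equally). Smad9 of the arch pair was also at -0.66 with classes from clusters.

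In fibroblast-like cells no Smad passed 1.5-fold between the arch libraries, against 11.6% of 12336 genes higher and 18.6% lower. Smad4 was at -0.33 (-0.51 to -0.15) there and at 0.24 (0.10 to 0.38) between the descending libraries. In the descending aorta 1 of 6 was past 1.5-fold, Smad9 at 0.63 (0.01 to 1.29, 58 and 35 UMIs), against 3.33% of 12188 genes higher and 4.16% lower. Between segments, 0 of 6 passed in controls, against 9.55% higher and 8.58% lower. In the cKO genotype Smad4 was lower in the arch at -0.65 (-0.83 to -0.47), 1 of 6 against 18.1%, with 0 higher against 12.7%, but at -0.45 with cells weighted equally. The descending Smad9 value was 0.57 with that weighting and 0.52 without doublet removal. Smad3 of the arch pair passed 1.5-fold when thinned (-0.73). Between the cKO segments Smad2 passed with doubled gates (-0.77) and with clusters (-0.89), and Smad3 with doubled gates (-0.75) and thinned (-1.01). Each library enters several of these comparisons, so they are not separate evidence.

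Endothelial-like cells differed in the BMP arm. In the arch Smad1 was 193 CPM in 159 cKO cells and 87.6 CPM in 698 control cells, a log2 ratio of 1.14 (0.88 to 1.40), and Smad5 was 93.8 against 53.0 CPM, 0.83 (0.45 to 1.18). These are 2 of 6 higher, against 9.59% of 10433 genes, and 0 were lower, against 18.9%. Smad9, on 3 and 20 UMIs, had too few to call. In the descending aorta Smad1 was lower, at 108 against 143 CPM (-0.41, -0.56 to -0.25), and Smad5 at -0.16 (-0.36 to 0.04). There Smad3, at 13.8 against 6.86 CPM (0.99, 0.39 to 1.66), and Smad9, at 31 against 6 UMIs (1.76, 0.57 to 3.41), were higher, 2 of 6 against 5.78% of 11466 genes, with 0 lower against 6.89%. The makeup of the class also differed between libraries, and its part in these values was not tested. Gpihbp1, a gene of capillary endothelium, had a UMI in 47.8, 34.0, 56.9 and 63.2% of endothelial-like cells, at whole-class medians of 4828, 3872, 3767 and 3752 UMIs. Split after seeing the data, the arch log2 ratio of Smad1 was 1.28 in cells with and 0.42 in cells without a Gpihbp1 UMI, and that of Smad5 was 1.12 and 0.44. In the descending aorta Smad1 was at -0.37 and 0.03, Smad3 at 1.07 and 0.45 and Smad9 at 2.68 (17 and 2 UMIs) and 0.56. With cells weighted equally Smad5 was at 0.43 in the arch and Smad3 at 0.51 in the descending aorta, where it was 0.55 thinned. Between segments of the control genotype Smad9, on 20 and 6 UMIs, had too few to call. There 2 of 6 were lower in the arch, Smad1 (-0.71) and Smad5 (-0.67), against 11.8% of genes, and 1 higher, Smad3 (1.07), against 11.6%. Without a Gpihbp1 UMI these were -0.23, -0.44 and 0.10, Smad1 was at -0.47 with classes from clusters and Smad5 at -0.35 with cells weighted equally. In the cKO genotype Smad1 was higher in the arch (0.84), 1 of 6 against 10.6%, and Smad2 lower (-0.65, 30 against 321 UMIs), 1 of 6 against 18.7%. Without a Gpihbp1 UMI Smad1 was at 0.16, and thinned to 3000 UMIs Smad2 was at 0.05, with -0.55 under doubled gates and -0.54 with clusters.

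**Figure D4:**
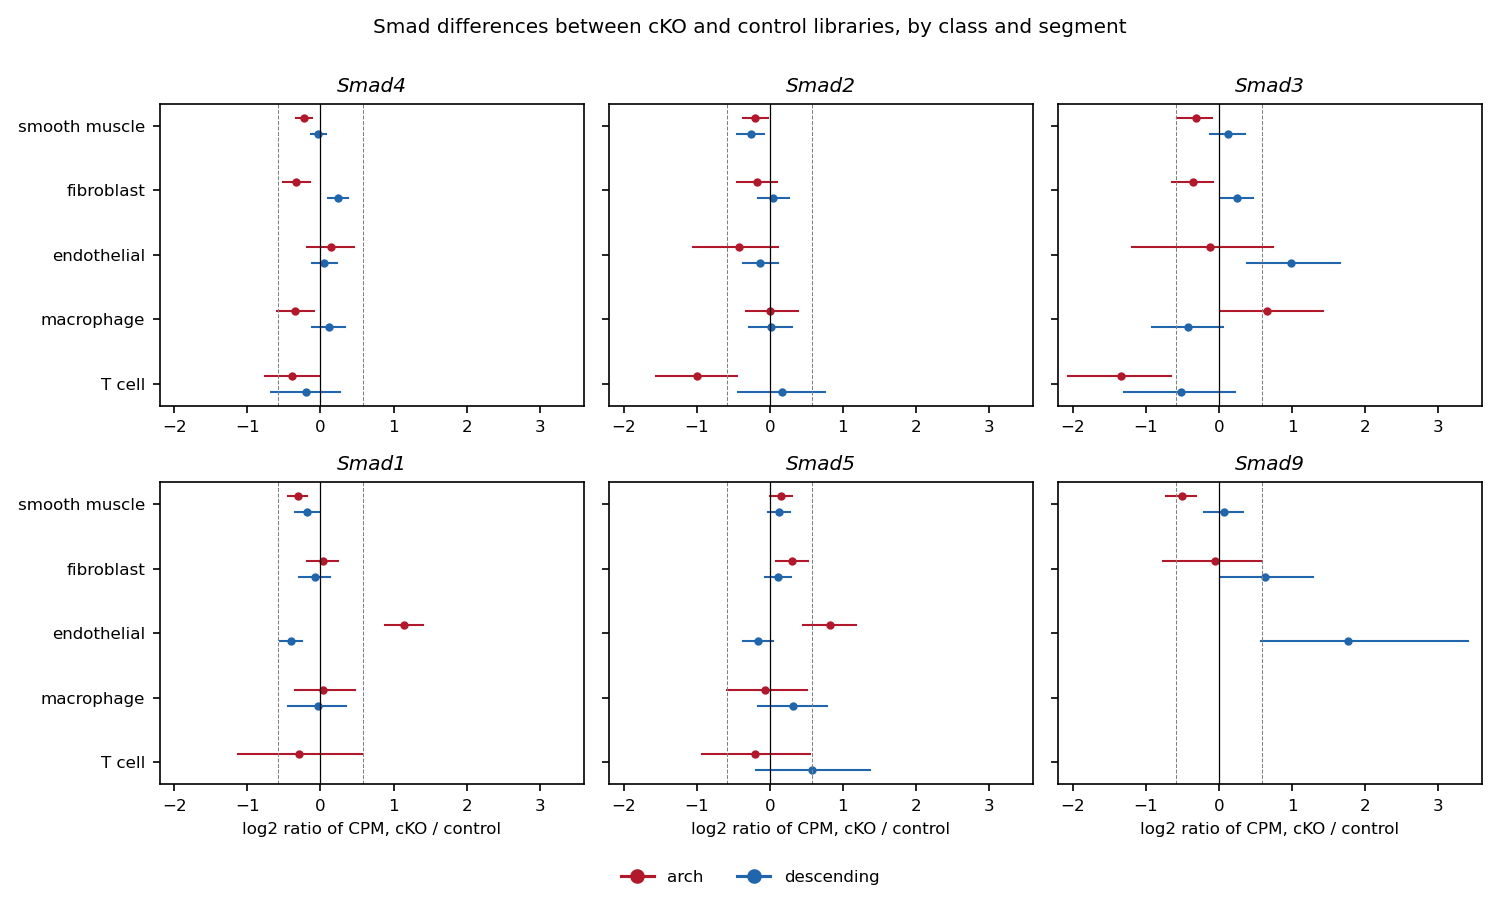
Log2 ratio of CPM, cKO over control, for each Smad in 5 classes, for the arch pair and the descending pair, with 95% intervals of counting error; dashed lines mark 1.5-fold, and pairs under 30 UMIs are left out. In endothelial-like cells Smad1 is at 1.14 for the arch pair and -0.41 for the descending pair, while Smad4 in smooth muscle-like cells is at -0.23 and -0.03.

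Among leukocytes, Smad2 and Smad3 of T cell-like cells were lowest in the cKO arch. Smad2 was 26.9, 54.0, 52.2 and 46.5 CPM and Smad3 15.6, 39.9, 27.2 and 39.2 CPM. Against the control arch the log2 ratio of Smad2 had an interval of -1.56 to -0.45 and that of Smad3 was -1.34 (-2.07 to -0.66), 2 of 6 lower, against 28.9% of 8378 genes, and 0 higher, against 14.9%. In that comparison the median over expressed genes was itself at -0.23, and a count of 2 in 6 is near the share of all genes. Against the descending cKO library 3 of 6 were lower, Smad2 (-0.95), Smad3 (-0.80, -1.62 to 0.03) and Smad5 (-0.82), against 13.9% of genes, with 0 higher against 19.3%. In each T cell comparison Smad9 had too few UMIs to call, as had Smad1 between the descending libraries (13 and 15 UMIs). No Smad with enough UMIs passed 1.5-fold between the descending libraries (against 3.56% higher and 12.6% lower) or between the controls (17% and 9.68%). Smad5, at 0.58 between the descending libraries, was just short of it and passed with stricter cell filters (0.61), classes from clusters (0.65, 0.02 to 1.29), cells weighted equally (0.78) and median-of-ratios scaling (0.68). Between the arch libraries Smad4 was at -0.39 (-0.76 to -0.02) in T cell-like and -0.35 (-0.60 to -0.09) in macrophage-like cells. RFP was high in 0 and 0.26% of these cells of the cKO arch. With median-of-ratios scaling the ratios were -0.16 (-0.53 to 0.21) and -0.25 (-0.50 to 0.00). Thinned to 3000 UMIs, Smad4 of T cell-like cells was at -0.81 (-1.33 to -0.28) between the arch libraries and 0.70 (0.11 to 1.31) between the controls. In macrophage-like cells Smad3 was 14.1, 8.74, 15.6 and 20.9 CPM. The arch log2 ratio of 0.66 (0.01 to 1.43) made 1 of 6 higher, against 16.9% of 10579 genes, and 0 lower, against 21.6%, but it was 0.54, 0.56 and 0.48 without doublet removal, with classes from clusters and thinned. The lowest Smad3 value, in the control arch, rests on 21 UMIs, and it was also lower than in the descending control (-1.23, -2.00 to -0.58), 1 of 6 against 9.39%, with 0 higher against 8.11%. In the other macrophage comparisons 0 of 6 passed, against 5.94% higher and 8.67% lower between the descending libraries and 16.7% and 22.4% between the cKO segments. Smad9 had under 30 UMIs in every macrophage comparison, so 1 of the 6 could not be called. In mesothelial-like cells 0 of 6 passed between the descending libraries, against 4.26% and 6.83%, or between the controls, against 6.72% and 10.3%. Thinned to 3000 UMIs, Smad5 passed between the descending libraries at 0.80 (0.14 to 1.51, 53 and 30 UMIs). Pericyte-like and B cell-like cells gave 0 calls with 3 or 4 of the 6 Smads under 30 UMIs, against 8.63% higher and 12.4% lower in pericytes and 6.25% and 10.8% in B cells of the descending libraries, and 14.2% and 21% in B cells of the cKO segments.

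Levels were also compared with those of other genes over 28 sums, each 1 of 10 classes in 1 library with at least 100 cells, on log2(CPM + 1). These sums share libraries and depth, so the correlations describe these data only, and no p-value is given. Of 12654 genes, those most like Smad4 were Sox13 (Pearson r 0.80), Siah1a (0.78), Zfyve1 (0.75), Kansl3 (0.74) and Ywhab (0.72). Those most like Smad9 were Myh10 (0.94), Klf15, Sgcd (both 0.93), Smarcd3 and Cald1 (both 0.92). Myh10 encodes a non-muscle myosin heavy chain, Cald1 the actin-binding protein caldesmon and Sgcd a sarcoglycan. Among the Smads, Smad4 was nearest Smad1 (0.55) and Smad9 was nearest Smad1 (0.44), whereas Smad9 and Smad2 ran opposite (-0.61).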

How the data were processed

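The deposited values are unnormalized UMI counts of each gene in each barcode. Cell Ranger 6.1.1 and mm10 come from the submitters' processing notes, and the file headers give 6.1.2. No source used here names the annotation release. Analyses used the 27734 identifiers shared by all libraries (99.52 to 99.64% of UMIs). Kept barcodes had at least 500 genes and under 10% mitochondrial UMIs, and the highest Scrublet scores (scanpy 1.11.5) were removed at 0.8% per 1000 barcodes (209 to 594 cells). A class needed 2 markers and 3 marker UMIs and, per 10000 UMIs, at least 100 (smooth muscle), 60 (fibroblast), 20 (endothelial, macrophage, B cell, mesothelial), 8 (T cell), 40 (pericyte) or 5 (Spp1 and Tnfrsf11b, both detected). A cell that passed the Spp1 and Tnfrsf11b gate went to that class even if it passed the smooth muscle or fibroblast gate. In the same way a mesothelial gate took precedence over fibroblast, a lymphatic gate over endothelial and a thymocyte gate over T cell. Cells passing several gates in any other combination were left out. Boundaries were set after the cells had been seen, and the Spp1 gate was revised once, before Smad values under it were read. The members, marker lists and pathway lists were chosen with earlier results of these data known.

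CPM of summed UMIs have exact Poisson intervals. Log2 ratios used a prior of 0.5 UMI and exact conditional intervals, checked on simulated data. Shares have Clopper-Pearson intervals. Called means at least 1.5-fold with at least 30 UMIs in both sums. With 1 library per group no test was made. UMIs are not replicates, so intervals cover counting error only. Named pathway genes are the 3 furthest from 0 in each list in the smooth muscle or Spp1+Tnfrsf11b+ class, with their values in fibroblast-like cells. Other genes are named only to account for a small count, and 1 listed gene is not reported here by name. Alternatives were other cell filters, no doublet removal, doubled gates, classes from Leiden clusters, equal cell weights, median-of-ratios scaling, thinning to 3000 UMIs and other RFP boundaries. Splits by Gpihbp1, by depth and by Spp1 or Tnfrsf11b were chosen after seeing the data.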

Additional observations from a re-analysis of the deposited data

Results flagged for a closer look

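For 3 pairs of values the cKO to control difference ran one way in the arch and the other way in the descending aorta, with both counting intervals clear of 0. The difference between segments was not tested, since each rests on 4 single libraries. How often other genes met this rule was not counted, so the number of pairs sets no Smad apart. Smad1 in endothelial-like cells had a log2 ratio of 1.14 (arch) and -0.41 (descending). In endothelial-like cells without a Gpihbp1 UMI, a split chosen after seeing the data, these were 0.42 and 0.03. In those with a Gpihbp1 UMI the directions stayed opposite, as given above. Smad4 in fibroblast-like cells was at -0.33 (arch) and 0.24 (descending). Smad3 in fibroblast-like cells was at -0.36 (arch) and 0.25 (descending), and within the cKO arch it was 17.8 CPM in RFP-low and 35.2 CPM in RFP-high cells. The arch values also set libraries of different annotation and sex make-up side by side, which cannot be told apart from genotype here.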

How the results depend on the processing

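Every RFP ratio of Smad4 in the 3 mesenchymal classes kept its negative sign under the alternatives run, from -1.27 to -0.58 in smooth muscle-like, -1.38 to -0.47 in fibroblast-like and -0.73 to -0.23 in Spp1+Tnfrsf11b+ cells, and Smad9 in smooth muscle-like cells ran from -2.07 to -0.63. In smooth muscle-like cells Smad4 was -0.78 with classes from clusters and -0.58 with RFP-high at 8 or more UMIs, where Smad9 was -0.63. Thinned to 3000 UMIs, Smad4 was -0.73 in Spp1+Tnfrsf11b+ and -0.47 (-1.14 to 0.15, 33 and 62 UMIs) in fibroblast-like cells. The cluster setting gave no value for the Spp1+Tnfrsf11b+ class, because its main cluster took the smooth muscle class. Between the arch libraries, Smad4 in smooth muscle-like cells was -0.34 with cells weighted equally, -0.12 with median-of-ratios scaling and -0.44 thinned, and in the descending aorta 0.15 with cells weighted equally. That weighting gave Smad4 levels of 66.5 (cKO arch), 84.0 (control arch) and 103 CPM (cKO descending). Between the cKO segments, Smad3 in smooth muscle-like cells reversed to 0.07 with classes from clusters and Smad2 in endothelial-like cells to 0.05 thinned. The cause was not tested. BMP targets past 1.5-fold lower ranged from 5 to 7, 3 to 7 and 4 to 9 in the smooth muscle, Spp1+Tnfrsf11b+ and fibroblast class, feedback inhibitors from 1 to 5, 0 to 3 and 1 to 5, and TGF-beta targets from 1 to 4, 2 to 6 and 4 to 8. Of values recomputed, 557 CPM, 185 RFP ratios, 1026 library ratios and 74 list counts stayed within their counting interval or 1.5 times the count. In the same order, 43, 13, 108 and 16 moved further. The 2 library ratios named above, both past 1.5-fold in the main setting, reversed. Ratios under 1.5-fold also changed sign without being counted as reversed. An example is Smad1 of T cell-like cells between the arch libraries, at -0.30 and, thinned, 0.64. Of 120 library ratios under 1.5-fold, 32 passed it under some alternative, 16 of them with an interval clear of 0, and of 25 past it 14 fell short under some alternative. No paired analysis was possible because each group is 1 library. Depth limits Smad9 outside smooth muscle, with 31 or fewer UMIs in each endothelial sum.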
